A study of Canis lupus familiaris with 2 samples.

Results

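The transforming growth factor beta (TGF-beta) and bone morphogenetic protein (BMP) signalling genes were examined in MDCK cells, an established dog kidney line that forms a columnar epithelium. Members were taken from a list of 42 gene symbols, of which 41 were found among the 23510 features measured. The list was chosen with earlier results of these data known, so member counts and shares describe the listed genes only. ID2 was the symbol that was not found, and its value under another name is given with the target genes. RNA was sequenced from a single culture at each of the medium heights, 2 cm and 50 cm. Both cultures were unmodified MDCK cells in serum-containing medium, grown on a porous membrane for 3 days as the labels state, and they differed in the height of the medium, which sets the water pressure on the cells. The 2-cm-high-medium culture, whose labels say both no pressure and 2 cmH2O, served as the control and is called so here.

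TGF-beta and the BMPs are secreted dimers that bring together type I and type II receptor kinases at the cell surface. TGF-beta receptors phosphorylate SMAD2 and SMAD3, and BMP receptors phosphorylate SMAD1, SMAD5 and SMAD9. These pair with SMAD4 and enter the nucleus, where they act on target genes such as the ID family. In kidney epithelium, TGF-beta is known for restraining growth and promoting matrix production, and BMP7 is known as a signal of the developing and adult tubule. Serum also carries ligands of this family, which RNA levels in the cells do not show.

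Levels are given as FPKM, read counts scaled for gene length and library size, and can therefore be compared between genes. With 1 culture per medium height there was no replicate error, no test was possible, and the values compare these libraries. As a yardstick, the log2 of each ratio (50-cm-high over 2-cm-high medium) was divided by its scaled median absolute deviation among the 500 features nearest in expression. This spread runs across genes and is not an error of the ratio. Summed over all features, FPKM came to 600496 in the control and 614100 in 50-cm-high medium. All 8 epithelial markers examined lay between 34.5 and 1641 FPKM in both cultures. The 8 fibroblast markers summed to 0.374 and 0.401 FPKM, the 5 endothelial markers to 0.474 and 0.277, and the 3 leukocyte markers found to 0.0734 and 0.0201, in 2-cm-high and 50-cm-high medium, respectively. A lower level in a bulk sample cannot be told apart from fewer cells that make the RNA.

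No member changed more than 2-fold. Of the 41 members, 32 exceeded 1 FPKM in both cultures and could be counted. Their ratios ran from 0.663 for TGFBR3, a TGF-beta co-receptor, to 1.79 for NOG, which encodes the BMP antagonist noggin. Of all 11057 features above 1 FPKM in both cultures, 1.67% changed more than 2-fold, 0.389% with a ratio above 2 and 1.28% with a ratio below 0.5, so a count of 0 among 32 genes lay near the background. The median log2 ratio was 0.08 over the 32 members and 0.01 over all 11057 features. A ratio above 1 was found for 20 members (62.5%), compared with 52.6% of all features.

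**Figure D1:**
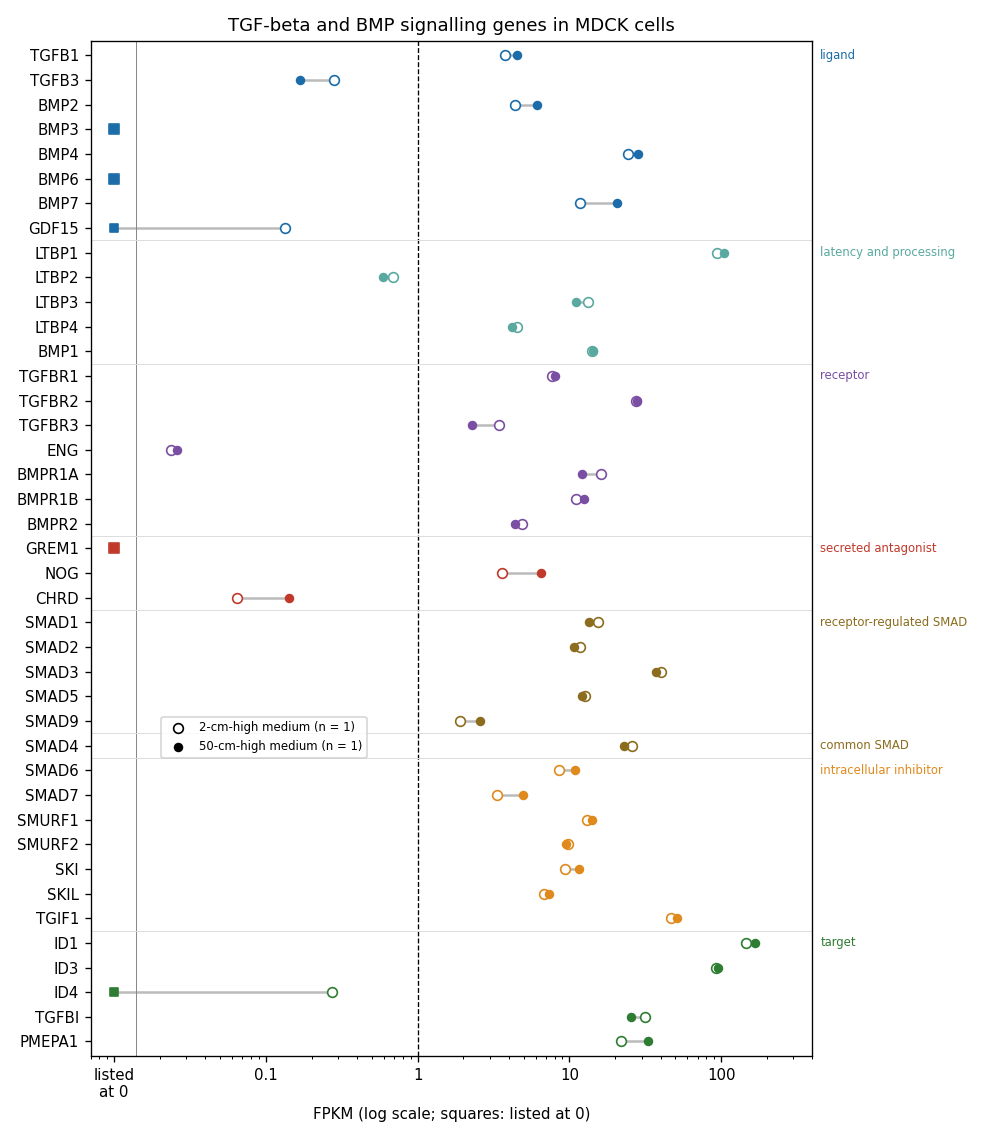
FPKM of the 41 members on a log scale in 2-cm-high medium (open symbols) and 50-cm-high medium (filled symbols), 1 culture each and no error bars, grouped by role. The dashed line marks 1 FPKM, which 32 members exceeded in both cultures, and squares at the left stand for a value listed at 0.

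With a change of more than 1.5-fold, 4 of the 32 members (12.5%) were counted, compared with 7.19% of all features. NOG, BMP7 and PMEPA1 lay above and TGFBR3 below, whereas of all features 2.13% passed upward and 5.06% downward. On the yardstick of similarly expressed features, BMP7 lay 4.01 spreads above 0, PMEPA1 3.04 and NOG 2.79. These were the members more than 2 spreads from 0, which made 3 of 32, and 10.2% of all features passed the same limit. The share of members was thus near that of features in general.

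**Figure D2:**
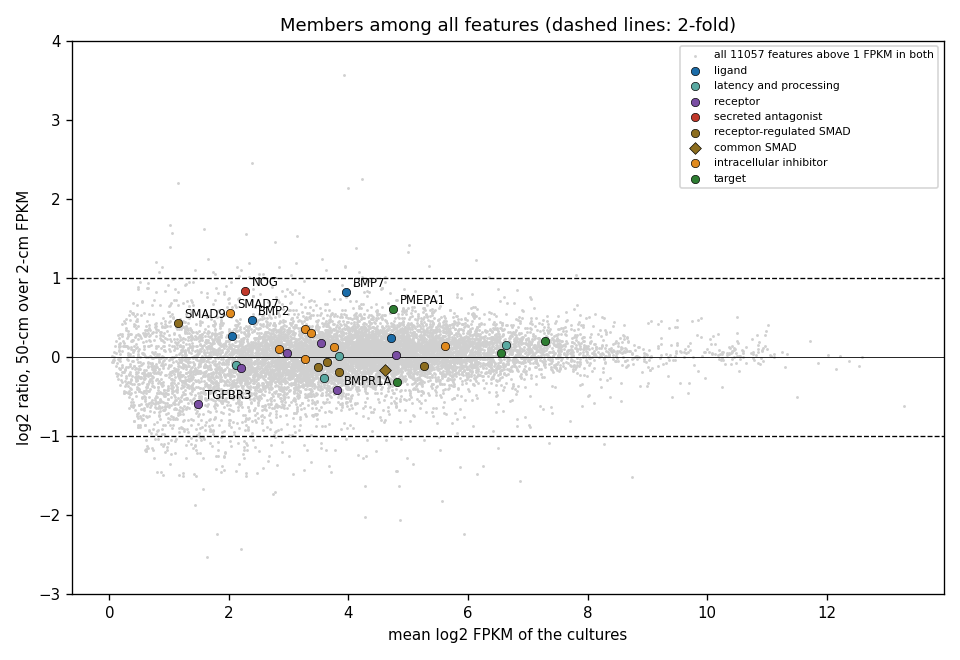
Log2 ratio of 50-cm over 2-cm FPKM against the mean log2 FPKM of the cultures for all 11057 features above 1 FPKM in both (grey) and the 32 members (coloured by role), 1 culture per medium height. All members lie between the dashed lines of 2-fold change, with NOG and BMP7 highest and TGFBR3 lowest.

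Among the members, the ligand genes measured above 1 FPKM all had ratios above 1, compared with 52.6% of all features. Of the 8 ligand members, these were 4, and their median log2 ratio was 0.37. The 4 further ligand genes above 1 FPKM outside the member list did not share this direction. Of these, 2 had ratios above 1 and 2 below, with a median log2 ratio of -0.01. BMP7 went from 11.7 to 20.7 FPKM, a ratio of 1.76 (log2 ratio 0.82). BMP2, which like BMP4 is a close relative of the fly ligand Dpp, went from 4.41 to 6.12 FPKM, a ratio of 1.39. BMP4 was the most abundant ligand in both cultures, with 24.3 and 28.5 FPKM, a ratio of 1.18. Its excess over BMP7 was accordingly smaller in 50-cm-high medium, where the quotient of BMP4 over BMP7 was 1.38, than in 2-cm-high medium, where it was 2.07. TGFB1, encoding TGF-beta 1, had 3.79 and 4.55 FPKM, a ratio of 1.20. Apart from BMP7, the ratios of the member ligand genes above 1 FPKM lay within 2 spreads of similarly expressed features.

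The remaining ligand genes among the members were at the edge of detection or listed at 0. TGFB3 had 0.280 FPKM in the control and 0.168 FPKM in 50-cm-high medium. Its ratio of 0.599 was the one that 6 reads against 11 give, with a 95% counting interval of 0.182 to 1.77 (exact, Clopper-Pearson), which holds if these were the reads. GDF15, a distant and stress-induced family member, had 0.134 FPKM in 2-cm-high medium and was listed at 0 in 50-cm-high medium. BMP3, whose product opposes other BMPs, and BMP6 were listed at 0 in both cultures. A listed 0 does not show that the RNA was absent, since ATP5O, a subunit gene of the mitochondrial ATP synthase, was also listed at 0 in both.

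Latent TGF-beta binding proteins hold the inactive ligand in the matrix, and their levels were close in the cultures. LTBP1 was the second most abundant member, with 94.4 FPKM in the control and 105 FPKM in 50-cm-high medium, a ratio of 1.11. Its FPKM value was 24.9 times that of TGFB1 in 2-cm-high medium and 23.1 times in 50-cm-high medium. LTBP3 had 13.2 and 11.0 FPKM (ratio 0.834), so that LTBP1 exceeded it by 7.13 times in the first culture and by 9.52 times in the second. LTBP4 had 4.49 and 4.19 FPKM (ratio 0.932), and its log2 ratio turned from -0.10 to 0.02 when the cultures were quantile normalized. LTBP2, whose product resembles fibrillin and does not bind latent TGF-beta, had 0.690 and 0.590 FPKM. Its ratio of 0.855 was the one that 67 reads against 86 give, with a counting interval of 0.612 to 1.19 if these were the reads. BMP1 is no ligand but a secreted metalloprotease that processes procollagen and cleaves the BMP antagonist chordin, and it had 14.2 and 14.4 FPKM (ratio 1.01).

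Among the receptor genes, the kinases of the TGF-beta arm differed little between the cultures and the co-receptor gene TGFBR3 had the lowest ratio of all members. TGFBR1, the type I receptor, had 7.70 FPKM in the control and 7.99 FPKM in 50-cm-high medium (ratio 1.04). TGFBR2, the type II receptor, had 27.5 and 28.1 FPKM (ratio 1.02), and its log2 ratio was 0.03 as deposited and -0.03 after quantile normalization. TGFBR3, which encodes betaglycan and presents TGF-beta to the kinases, had 3.45 and 2.29 FPKM, a ratio of 0.663 (log2 ratio -0.59). Its log2 ratio came to -1.46 spreads, at a level where the spread of similarly expressed features was 0.41. ENG, the co-receptor endoglin best known from endothelium, had 0.0238 and 0.0261 FPKM, a quotient within 0.05% of that given by 1 read in each culture.

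The BMP receptor genes among the members showed a change in order between the type I receptors BMPR1A and BMPR1B. ACVR1, a BMP type I receptor outside the member list, had a higher level than both in each culture (22.4 and 25.1 FPKM). BMPR1A had 16.1 FPKM in the control and 12.1 FPKM in 50-cm-high medium (ratio 0.751). BMPR1B had 11.0 and 12.4 FPKM (ratio 1.13). The quotient of BMPR1A over BMPR1B was thus 1.47 in the first culture and 0.974 in the second, where the 2 genes were nearly level. BMPR2, the type II receptor that works with both, had 4.85 and 4.41 FPKM (ratio 0.910). Of the 6 member receptor genes above 1 FPKM, 3 had a ratio above 1 (52.6% of all features did), or 2 after quantile normalization. All 6 lay within 2 spreads of 0.

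Of the secreted BMP antagonists in the member list, NOG was the one expressed above 1 FPKM, and its ratio was the highest of all members. NOG went from 3.62 to 6.48 FPKM, a ratio of 1.79 (log2 ratio 0.84), at a level where the spread of similarly expressed features was 0.30. In 2-cm-high medium, BMP4 exceeded NOG by 6.69 times and BMP7 by 3.24 times. In 50-cm-high medium these quotients were 4.41 and 3.20, so that NOG kept its distance to BMP7 but not to BMP4. CHRD, which encodes chordin, had 0.0648 and 0.142 FPKM. Its ratio of 2.20 differed by under 0.05% from the quotient of 2 reads over 1. If these were the reads, it cannot be read as a change, and at this level it was not counted as one. GREM1, encoding gremlin 1, was listed at 0 in both cultures.

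The SMAD genes that carry the signal mostly had ratios just below 1. SMAD3 was the most abundant of them, with 40.0 FPKM in the control and 37.0 FPKM in 50-cm-high medium (ratio 0.926). SMAD2, its partner in the TGF-beta arm, had 11.8 and 10.8 FPKM (ratio 0.916), so that SMAD3 exceeded SMAD2 by 3.39 and 3.43 times. SMAD4, the subunit common to both arms, had 25.8 and 22.9 FPKM (ratio 0.891).

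In the BMP arm, SMAD1 had 15.4 and 13.5 FPKM (ratio 0.875), and SMAD5 had 12.7 and 12.2 FPKM (ratio 0.959). SMAD9 was the exception, with 1.90 FPKM in the control and 2.56 FPKM in 50-cm-high medium (ratio 1.35), the lowest level among the members counted in the first culture. Of the 5 receptor-regulated SMAD genes, 1 therefore had a ratio above 1 and 4 below 1, whereas 52.6% of all features lay above 1. Each of the 5, and SMAD4, lay within 1 spread of similarly expressed features.

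Genes for intracellular inhibitors of the pathway mostly had ratios above 1, and the inhibitory SMADs led them. SMAD7, which blocks TGF-beta receptors and is itself induced by TGF-beta, had 3.35 FPKM in the control and 4.92 FPKM in 50-cm-high medium (ratio 1.47). SMAD6, the inhibitor that acts mainly on the BMP arm, had 8.52 and 10.9 FPKM (ratio 1.28). These lay 1.56 and 1.45 spreads above 0, respectively.

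SKI and SKIL encode co-repressors that bind SMAD complexes. SKI had 9.38 and 11.5 FPKM (ratio 1.23), and SKIL had 6.85 and 7.37 FPKM (ratio 1.08). TGIF1, a repressor that competes at SMAD2 and SMAD3 target genes, was the most abundant inhibitor with 46.5 and 51.1 FPKM (ratio 1.10). The ubiquitin ligases SMURF1 and SMURF2, which mark receptors and SMADs for degradation, had ratios of 1.09 (13.0 and 14.2 FPKM) and 0.978 (9.76 and 9.55 FPKM). In all, 6 of the 7 inhibitor genes had a ratio above 1, compared with 52.6% of all features. After quantile normalization it was 7 of 7, as SMURF2 turned from -0.03 to 0.02 on the log2 scale. The median log2 ratio of the inhibitor genes was 0.13, none passed 1.5-fold and none lay more than 2 spreads from 0.

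The ID genes encode helix-loop-helix proteins without a DNA-binding domain and respond directly to BMP signals. ID1 was the most abundant member, with 145 FPKM in the control and 167 FPKM in 50-cm-high medium (ratio 1.15). ID3 had 92.1 and 95.2 FPKM (ratio 1.03), and its log2 ratio turned from 0.05 to -0.02 with quantile normalization. ID4 had 0.271 FPKM in 2-cm-high medium and was listed at 0 in 50-cm-high medium. ID2 was present under the locus name LOC100686903, whose gene number RefSeq assigns to ID2. It had 99.3 FPKM in the control and 80.4 FPKM in 50-cm-high medium, a ratio of 0.810 and -1.59 spreads on the log2 scale. The abundant ID genes thus did not share a direction, and the ratios of ID1, ID2 and ID3 all lay within 2 spreads of features expressed at similar levels.

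Of the other members known as TGF-beta targets, PMEPA1 and TGFBI differed in direction. PMEPA1, which is induced by TGF-beta and in turn dampens SMAD signalling, had 21.7 FPKM in the control and 33.1 FPKM in 50-cm-high medium, a ratio of 1.52 (log2 ratio 0.61). TGFBI, a secreted matrix protein named for its induction by TGF-beta, had 31.4 and 25.3 FPKM (ratio 0.806). Counted with ID1 and ID3, 3 of the 4 target genes found by symbol above 1 FPKM had a ratio above 1 (52.6% of all features did). After quantile normalization it was 2 of 4. Both counts leave out ID2, which was found by gene number only and had a ratio below 1 (0.810).

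**Figure D3:**
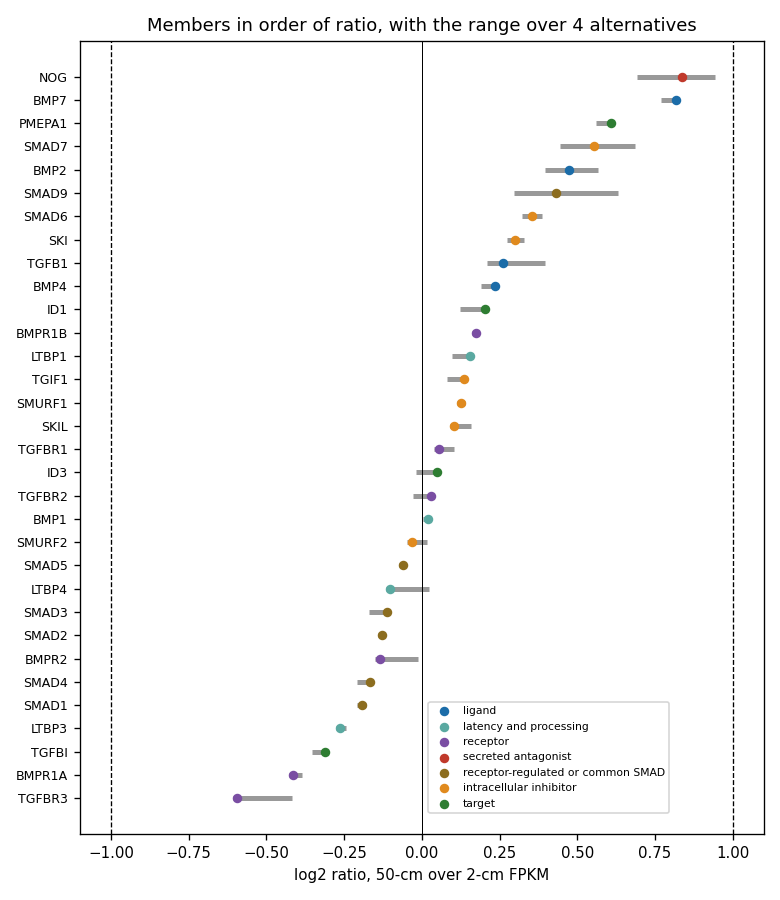
The 32 members above 1 FPKM in both cultures in order of their log2 ratio (points, coloured by role; 1 culture per medium height). Grey bars span the log2 ratios under a pseudocount of 0.1 or 1, recentring on the median and quantile normalization; all bars stay inside the dashed lines of 2-fold change, and those of ID3, TGFBR2, SMURF2 and LTBP4 cross 0.

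The order of the members by level was similar in the cultures. ID1, LTBP1, ID3, TGIF1 and SMAD3 held ranks 1 to 5 of 32 in both. BMP7 had rank 18 in 2-cm-high medium and rank 11 in 50-cm-high medium, and PMEPA1 had ranks 10 and 6. BMPR1A moved the other way, from rank 11 to rank 17, and LTBP3 from 14 to 19. Neighbours in this order are often closer than the spread of similarly expressed features, as with SMAD2 and BMP7 in 2-cm-high medium (11.8 and 11.7 FPKM). Among all 11057 features, NOG had rank 77 by ratio and BMP7 rank 88. They were the members with the highest ratios, and a rank by ratio takes no account of the spread at their level.

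Other genes of the TGF-beta family, its regulators and its targets, which are not members, were listed by role for comparison. Of 128 listed, 121 were found and 65 were above 1 FPKM in both cultures. Of these 65, 4 changed more than 2-fold, 3 upward and 1 downward, beside the background of 1.67%. The list was chosen with earlier results of these data known, so its counts describe the listed genes only. FST, encoding follistatin, which binds activins and some BMPs, went from 8.58 to 40.9 FPKM (ratio 4.76). BGN, encoding the matrix proteoglycan biglycan, which binds TGF-beta, went from 3.15 to 6.73 FPKM (ratio 2.14). DAB2, an endocytic adaptor that links TGF-beta receptors to SMADs, went from 3.33 to 7.62 FPKM (ratio 2.29). BHLHE40, a transcriptional repressor that responds to TGF-beta and also to hypoxia and the clock, fell from 64.7 to 32.1 FPKM (ratio 0.496).

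Among the ligands, the latency and processing genes and the receptors, no gene above 1 FPKM in both cultures passed 2-fold, and their extremes were as follows. INHBA, the subunit gene of activin A, had the highest ratio of the ligands (10.7 and 15.4 FPKM, ratio 1.43) and GDF11 the lowest (7.40 and 6.15 FPKM, ratio 0.831). GDF9, a ligand known from the oocyte, was not counted, since it had 2.08 FPKM in the control but 0.780 FPKM in 50-cm-high medium (ratio 0.374). THBS1, encoding thrombospondin 1, an activator of latent TGF-beta, had 111 and 170 FPKM (ratio 1.53). ITGB8, an integrin subunit that also releases TGF-beta from latency, had 16.2 and 12.2 FPKM (ratio 0.752). The receptor genes ranged from NEO1, a receptor for the BMP co-receptors of the repulsive guidance family, at 0.742 to ACVR1, a BMP type I receptor, at 1.12. TGFB2, absent from the member list, had 15.0 and 15.1 FPKM (ratio 1.01), a higher level than TGFB1 in both cultures.

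The 22 further target genes above 1 FPKM spread more widely than the members. Of them, 7 passed 1.5-fold upward and 2 downward, in all 40.9%, compared with 7.19% of all features, of which 2.13% passed upward and 5.06% downward. Their median log2 ratio was 0.34. Since the list was chosen with earlier results of these data known, these shares are no independent evidence. SNAI1, a repressor of epithelial cadherin, was singled out after its values were seen; it had 6.86 and 13.4 FPKM (ratio 1.95) and came just short of 2-fold. Many genes of this list also respond to other pathways, and which of these acted in the cultures was not tested. Among 5 further secreted antagonists, 4 passed 1.5-fold upward, with FSTL3 at 26.0 and 46.2 FPKM (ratio 1.78), and TWSG1 had a ratio of 0.769. In contrast, the 22 further intracellular transducers and inhibitors had a median log2 ratio of -0.002, and DAB2 was the one past 1.5-fold.

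**Figure D4:**
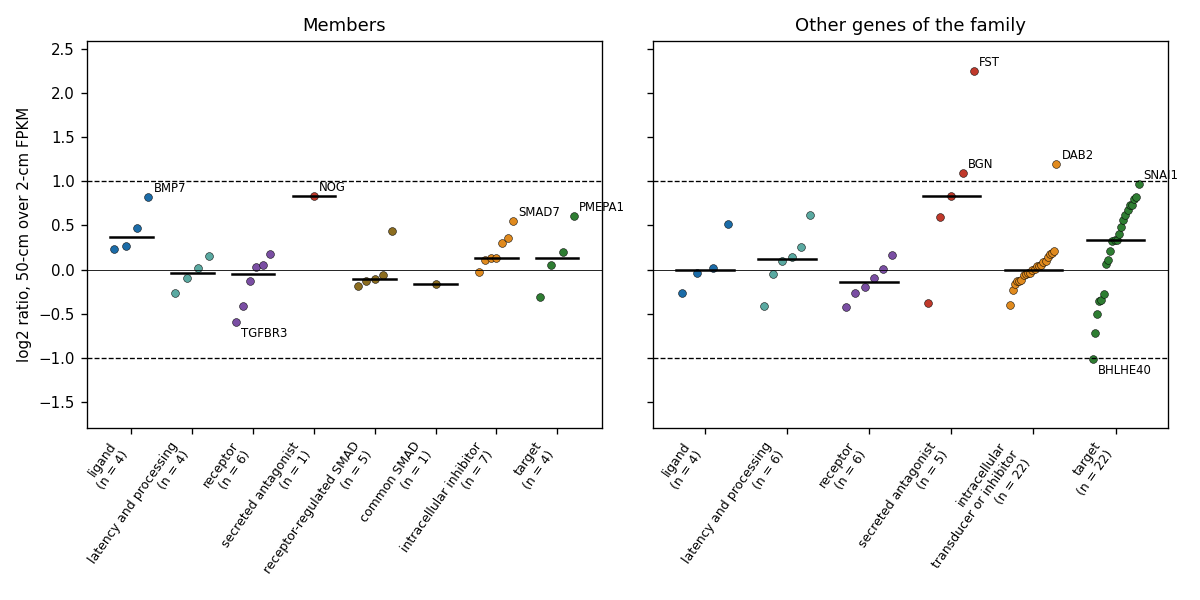
Log2 ratio of 50-cm over 2-cm FPKM by role for genes above 1 FPKM in both cultures, 1 culture per medium height. The 32 members are on the left. The 65 other genes of the family, its regulators and its targets are on the right. Points are genes, thick bars are medians and dashed lines mark 2-fold; FST, BGN and DAB2 lie above and BHLHE40 below these lines, and no member does.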

How the data were processed

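RNA from 1 MDCK culture per medium height was made into stranded mRNA libraries by the authors. The submitters' processing notes name the build CanFam 3.1 and the tools TopHat2 2.0.13, SAMtools 0.1.19 and Bowtie2 2.2.3. The deposited values are FPKM, which the authors calculated with Cuffnorm 2.2.1. The annotation and Cuffnorm's scaling are not given in the sources used here. FPKM has no replicate error, and a shift in a few abundant genes moves the others.

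Ratios of 50-cm over 2-cm FPKM were calculated without a pseudocount. Genes above 1 FPKM in both cultures were counted as changed with a ratio above 2 or below 0.5. All members were named. Of the other listed genes above 1 FPKM in both, those past 2-fold were named, or the extremes of a role without such a gene. GDF9 and SNAI1 were added after their values were seen, and TGFB2, FSTL3 and TWSG1 were also named outside this rule. The members and lists were chosen with earlier results of these data known. Library totals are unknown. Of 574 features under 0.1 FPKM in both cultures, 215 had a ratio within 0.05% of 1.0977, the value of 1 read in each, so that 1 read was worth 9.77% more FPKM in 50-cm-high medium. Smallest whole-read pairs of at most 100 reads, matched within 0.0015%, were given only under 1 FPKM, where 68.4% of features between 0.1 and 1 FPKM matched a pair, compared with 6.74% above 100 FPKM. ENG and CHRD had no match within 0.0015% and were compared with pairs of at most 10 reads within 0.05%. Multiples of a pair give the same ratio, so a pair need not be the reads themselves. Intervals cover counting error only. ID2, MAP3K7 and CCN2 were found by gene number in a RefSeq gene table of the assembly UU_Cfam_GSD_1.0, which held 3740 of the 6440 numbered locus names. It was used for names only. Sequences and positions were not used here. The alternatives were other FPKM minimums (above 0, 0.1 or 5 in both cultures, or above 1 in at least one), a pseudocount of 0.1 or 1, recentring, quantile normalization and a 1.5-fold limit. Scripts were tested on simulated data. Python 3.11.15, numpy 2.4.6, pandas 2.3.3, scipy 1.17.1 and matplotlib 3.10.9 were used.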

Additional observations from a re-analysis of the deposited data

How the results depend on the processing

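The count of 0 members past 2-fold held with a minimum of 0.1 or 5 FPKM in both cultures, with 1 FPKM in at least one, with either pseudocount, after recentring, after quantile normalization and with ID2 added (an alternative chosen after seeing the data). It was 1 of 36 when any value above 0 in both was accepted, and 4 of 32 with a 1.5-fold limit. The 1 was CHRD, whose ratio lay within 0.05% of that of 2 reads against 1. The share of all features past the limit, 1.67% as reported, was 8.5% above 0, 5.5% (730 of 13280) above 0.1 and 0.708% above 5 FPKM in both, 2.95% above 1 in at least one, 1.55% and 0.832% with a pseudocount of 0.1 and 1, 1.72% after recentring, 1.43% after quantile normalization and 7.19% with a 1.5-fold limit. The median log2 ratio of the members stayed between 0.05 and 0.09 under the alternatives. For the other listed genes, the count of 4 (3 upward, 1 downward) became 2 of 49 above 5 FPKM, 1 of 65 with a pseudocount of 1, which left FST, and 15 of 65 with a 1.5-fold limit (13 upward, 2 downward). It was 5 after quantile normalization, where SNAI1 passed upward. It was also 5 with a minimum of 0.1 in both or 1 in at least one culture, where GDF9 passed downward. Above 0 it was 6 (3 upward, 3 downward), where AMHR2 passed downward too, at the ratio of 3 reads against 8. None of the 32 members passed 2-fold under the 4 alternatives computed for single genes. Quantile normalization turned the sign of 4 of them, namely LTBP4, TGFBR2, SMURF2 and ID3, and shifted a member by at most 0.197 on the log2 scale. No paired analysis was possible because each group has 1 sample. Leaving out a replicate was likewise not possible. Read totals are unknown, which limits all ratios under 1 FPKM.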

Other observations

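Besides ID2, 2 of the other listed genes were present only under locus names that RefSeq gene numbers resolve. CCN2, the matricellular TGF-beta target also known as CTGF, was listed as LOC476202 with 3.43 FPKM in the control and 5.73 FPKM in 50-cm-high medium (ratio 1.67, 2.36 spreads above 0). MAP3K7, the kinase TAK1 that TGF-beta receptors activate beside the SMADs, was listed as LOC102156745 with 21.2 and 23.1 FPKM (ratio 1.09). The symbols ID2, CCN2, CTGF and MAP3K7 themselves were not found, so a search by symbol passes over these genes.

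Some features outside both gene lists carry family names. BMP2K, a kinase gene named for its induction by BMP2, had 18.2 and 21.0 FPKM (ratio 1.15), and TGFBRAP1, a receptor-associated protein gene, had 8.33 and 8.42 FPKM (ratio 1.01). BMP15, GDF2 and TGFB1I1 were listed at 0 in both cultures. These features were looked up after the values of the members had been seen.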
